A study of Mus musculus with 11 samples.

Results

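The oxysterol-binding protein-related genes encode lipid transfer proteins (ORPs), and 10 of the 19329 genes in the deposited table were taken as this family: *Osbpl5* together with *Osbpl8*, *Osbpl1a*, *Osbpl2*, *Osbpl3*, *Osbpl6*, *Osbpl7*, *Osbpl9*, *Osbpl10* and *Osbpl11*. The family was chosen by name around *Osbpl5*, which was itself selected on the difference in its FPKM between the genotypes in these same libraries, so the difference of *Osbpl5* is given as a description and carries no test. The libraries hold RNA of whole islets, cultured after isolation, from untreated chow-fed male C57BL/6N mice of 14 weeks. There were 6 libraries of wild-type mice and 5 libraries of PDX1 P33T/P33T mice (called P33T), which carry the P33T change in both copies of *Pdx1* in every cell after CRISPR-Cas9 editing. The legend of the study can be read as saying that several mice went into each replicate, so n counts libraries and p-values measure the spread between them. The change in *Pdx1* is a single amino acid, so its RNA level does not check the labels: *Pdx1* had a mean of 79.02 ± 0.881 FPKM (SD, n = 5) in P33T, and its wild-type level was not analysed here.

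All ORPs share a lipid-binding domain that holds a sterol, phosphatidylserine or another lipid, and many of them trade it for phosphatidylinositol 4-phosphate (PI4P), a lipid made by kinases on the plasma membrane, Golgi and endosomes. ORP5 and ORP8, the products of *Osbpl5* and *Osbpl8*, are anchored in the endoplasmic reticulum and carry phosphatidylserine to the plasma membrane in return for PI4P where both membranes touch. Several other members reach the endoplasmic reticulum by binding VAP proteins.

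*Osbpl5* lies on the minus strand of chromosome 7 (GRCm38, GENCODE vM21, chr7:143688762-143756985), where no other annotated gene overlaps its exons. The annotation differs from the build GRCm39 named by the submitters and was used for sequence and neighbours only. *Osbpl8* is the member whose longest coding sequence is most like that of *Osbpl5*, with 63.9% identical bases over the aligned stretch, against 59.2% for the least similar member, *Osbpl9*. The 2 sequences below show the most similar ungapped window of 90 coding bases shared by *Osbpl5* and *Osbpl8* (GENCODE vM21), where 72 bases are the same and capitals mark the 18 that differ. They are coding bases 454 to 543 of *Osbpl5* and 448 to 537 of *Osbpl8*.
Osbpl5: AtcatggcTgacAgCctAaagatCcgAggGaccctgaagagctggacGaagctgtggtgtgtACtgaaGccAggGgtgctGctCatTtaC
Osbpl8: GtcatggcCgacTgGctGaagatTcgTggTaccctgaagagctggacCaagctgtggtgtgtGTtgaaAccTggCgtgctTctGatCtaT

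The longest exact stretch that any annotated *Osbpl5* transcript shares with any *Osbpl8* transcript is 17 bases. Over the other 8 members it was 12 to 15 bases. Among all 45 pairs of members the longest shared stretch was 49 bases, between *Osbpl8* and *Osbpl9*.

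PDX1 is a homeodomain transcription factor, and such factors bind sites with the core TAAT. RefSeq gives 3 start sites for *Osbpl5* (GRCm38.p6), and the 250 bases before the outermost of them and before the next one inside the gene are shown for that reason. Each is written 5′ to 3′ on the minus strand, with TAAT, on either strand, in capitals.
Osbpl5, outermost start, chr7:143757009-143757258: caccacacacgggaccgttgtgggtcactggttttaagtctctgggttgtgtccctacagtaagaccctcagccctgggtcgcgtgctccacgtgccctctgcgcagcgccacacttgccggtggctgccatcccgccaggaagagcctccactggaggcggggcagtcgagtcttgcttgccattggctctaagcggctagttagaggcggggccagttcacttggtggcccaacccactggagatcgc
Osbpl5, second start, chr7:143741964-143742213: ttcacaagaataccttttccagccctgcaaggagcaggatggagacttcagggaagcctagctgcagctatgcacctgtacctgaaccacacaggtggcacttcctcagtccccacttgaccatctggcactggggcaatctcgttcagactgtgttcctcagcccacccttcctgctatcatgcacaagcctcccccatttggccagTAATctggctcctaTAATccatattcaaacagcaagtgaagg

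The outermost *Osbpl5* window held no TAAT on either strand, the second held 2, starting 42 and 28 bases before the start site, and the third held none. Of all 32851 RefSeq windows of this length, 54.9% hold at least 1, and among members 4 of 12 windows did (1 each of *Osbpl5*, *Osbpl2*, *Osbpl6* and *Osbpl9*), so the 4 letters are common and a match is not a binding site. The window of *Osbpl8* held none.

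The values are FPKM, that is reads scaled by gene length and by library depth, so levels of different genes can be set side by side within a library. As deposited, most wild-type values are filed under the wrong gene, while the P33T values are filed correctly. *Osbpl5* is on its own row in both genotypes. The wild-type rows of *Osbpl8* and *Osbpl3* were identified by the wild-type reads that the authors list for these genes, and those of *Osbpl2*, *Osbpl7* and *Osbpl11* by the gene length recovered from the FPKM together with the level. Such a length-and-level match needed wild-type and P33T means within 2-fold for these 3 genes, so a larger difference could not have been seen in them. For *Osbpl9* and *Osbpl10* several wild-type rows remained possible, and for *Osbpl1a* and *Osbpl6* the wild-type level was not analysed here. The length recovered from the P33T values equalled the summed exon length of GENCODE vM21 for 9 of the 10 members. The exception was *Osbpl8*, with 9600 bases recovered against 9401.

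The depth to which the FPKM were scaled, recovered from the values, ran from 19311937 to 37094286 in wild-type and from 23731684 to 36865206 in P33T libraries. The table holds the islet hormone genes at high level in both genotypes, among them *Ins1*, *Ins2*, *Gcg* and *Sst*. The values of 6897 genes (35.7% of the table) could be compared between genotypes.

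*Osbpl5*, selected for it, had the widest difference between genotypes among the 6 members with an identified wild-type row, of which 3 could only be placed within 2-fold. In the 6 wild-type libraries it measured 6.25, 4.69, 4.54, 5.98, 5.83 and 6.06 FPKM, from 431 to 1091 reads. In the 5 P33T libraries it measured 1.26, 1.49, 1.34, 1.47 and 1.19 FPKM, from 167 to 216 reads. Every wild-type library lay above every P33T library, with a gap from 1.49 to 4.54 FPKM that held no library of either genotype. The mean was 5.56 ± 0.745 FPKM (SD, n = 6) among wild-type and 1.35 ± 0.129 FPKM (SD, n = 5) among P33T libraries, a 4.11-fold lower mean level in P33T and a log2 fold change of -1.96 on the log2(FPKM + 0.1) scale. In whole islets, fewer cells of a type that uses the gene and less RNA per cell cannot be told apart. Of the 6897 genes compared, 6 (0.087%) passed the test used throughout, limma with Benjamini-Hochberg adjustment over all 19329 genes, an adjusted p no higher than 0.05 and a fold change of at least 1.5. They were 3 higher and 3 lower in P33T. *Osbpl5* is counted among the latter, which its selection on this contrast fixes, and nothing is read from it.

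None of the 5 other members that could be compared passed that test, in either direction. At an unadjusted p under 0.05 by limma there were 3 of the 5: *Osbpl8* and *Osbpl3*, with higher means in P33T, and *Osbpl2*, with a lower mean. Of all genes compared 25.5% lay under this limit, and the share depends on how a row was found. Among genes whose rows are known from the authors' list of reads 87.7% lay under 0.05, since that list starts with the genes that differ most, and among genes found by length and level 5.63% did. Genes known from the list are left out of this last group, so low p-values are rarer in it by construction. *Osbpl8* and *Osbpl3* are of the first kind and *Osbpl2* of the second.

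*Osbpl8* encodes ORP8, which does the same lipid exchange as ORP5 and pairs with it at the same contacts. It measured 2.28, 2.75, 1.77, 2.29, 2.06 and 1.86 FPKM in the wild-type libraries. In the P33T libraries it measured 2.29, 4.33, 2.60, 2.58 and 2.84 FPKM. All 5 P33T libraries lay above the wild-type median, but 3 of them lay below the highest wild-type library, so the groups overlap. The mean was 2.17 ± 0.353 FPKM (SD, n = 6) among wild-type and 2.93 ± 0.808 FPKM (SD, n = 5) among P33T libraries. The log2 fold change was 0.40 with an SE of 0.16 and a 95% interval of 0.05 to 0.74, a ratio of between 1.03 and 1.67. The two-sided exact permutation p was 0.026, where 0.0022 is the smallest that 6 against 5 libraries allow, and limma's adjusted p was 0.492. The *Osbpl8* row is known from the list of reads, where 87.7% of genes had an unadjusted p under 0.05 by limma. A low p therefore follows in part from how the row was found. The replicate at 4.33 FPKM carries part of the difference: without it the log2 fold change was 0.25.

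*Osbpl3*, which encodes ORP3, a VAP-binding protein of contacts with the plasma membrane, had the lowest P33T mean of the 10 members. It measured 0.528, 0.566, 0.453, 0.634, 0.456 and 0.653 FPKM in wild-type, from 79 to 212 reads. In P33T it measured 0.656, 0.789, 0.705, 0.725 and 0.773 FPKM, from 159 to 257 reads. The genotypes did not overlap, although the lowest P33T and the highest wild-type libraries nearly touched at 0.656 and 0.653 FPKM. Values that did not overlap and were higher in P33T occurred in 1.71% of all genes compared and in 6.16% of those known from the list of reads. The means were 0.548 ± 0.0854 FPKM (SD, n = 6) for wild-type and 0.729 ± 0.0538 FPKM (SD, n = 5) for P33T, with a log2 fold change of 0.36 with an SE of 0.12 and a 95% interval of 0.09 to 0.63. Its exact permutation p was 0.00866 and its adjusted p by limma 0.48, for a row known from the list of reads as that of *Osbpl8* is.

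*Osbpl2* encodes ORP2, a short member without a membrane-targeting PH domain that moves cholesterol to the plasma membrane. It had by far the highest level of the 10 members in P33T, and of the 6 with an identified row in wild-type. It measured 25.9, 26.8, 26.4, 24.4, 23.8 and 23.8 FPKM in wild-type and 22.7, 22.4, 22.4, 24.2 and 21.8 FPKM in P33T. Of the 6 wild-type libraries 4 lay above the highest P33T library, and 4 of the 5 P33T libraries lay below every wild-type one. The means were 25.2 ± 1.35 FPKM (SD, n = 6) and 22.7 ± 0.908 FPKM (SD, n = 5). The log2 fold change was small at -0.15, with an SE of 0.07 and a 95% interval of -0.30 to -0.001. The exact permutation p was 0.0152 and limma's adjusted p 0.543. Of genes with rows found by length and level, 2.16% had a lower level in P33T at an unadjusted p under 0.05. That group leaves out genes known from the list of reads, so a low p is rarer in it by construction. Over all genes compared, 25.5% lay under 0.05 by limma in either direction.

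*Osbpl7* and *Osbpl11* had slightly lower means in P33T, with overlapping groups. *Osbpl7* measured 3.49, 3.19, 3.98, 2.65, 3.15 and 2.70 FPKM in wild-type and 3.19, 2.14, 3.07, 3.32 and 2.84 FPKM in P33T. Its log2 fold change was -0.13 with a 95% interval of -0.42 to 0.16, and the exact permutation p was 0.377. Without the P33T library at 2.14 FPKM the log2 fold change was -0.03. *Osbpl11* encodes ORP11, a Golgi and late endosome protein, and measured 1.53, 2.30, 2.25, 2.04, 2.02 and 1.70 FPKM in wild-type and 1.53, 1.46, 1.86, 1.68 and 1.81 FPKM in P33T. Its log2 fold change was -0.22 with a 95% interval of -0.49 to 0.04, and the exact permutation p was 0.0801. The median log2 fold change of all genes compared was -0.04. It was -0.32 among rows known from reads and 0.05 among rows found by length and level, as those of *Osbpl7* and *Osbpl11* were.

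**Figure D1:**
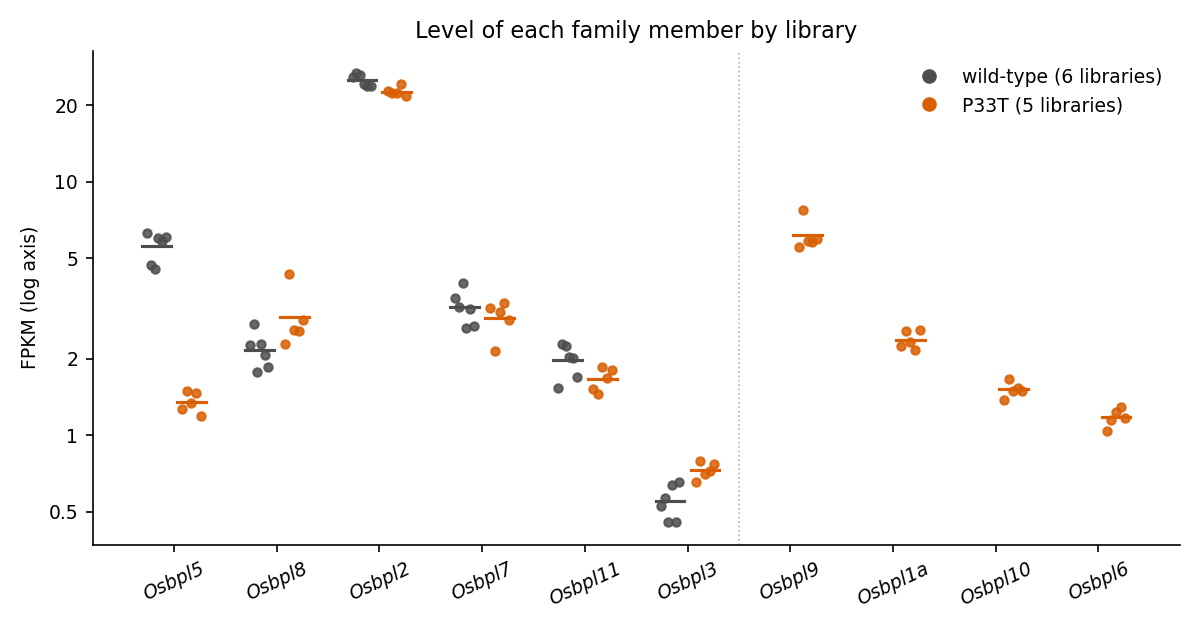
FPKM of each member on a log axis, with 1 point per library, grey for the 6 wild-type and orange for the 5 P33T libraries, and lines at the means. Left of the dotted line are the 6 members with an identified wild-type row, where only *Osbpl5* (5.56 against 1.35 FPKM) separates widely, and right of it are the 4 members shown in P33T only.

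Which relatives could make up for *Osbpl5* was not tested, and the levels are set side by side here in FPKM. The mean of *Osbpl5* differed by -4.21 FPKM in P33T against wild-type (SE 0.310). The mean of *Osbpl8* was 0.76 FPKM higher (SE 0.389) and that of *Osbpl3* 0.18 FPKM higher (SE 0.0424). The means of *Osbpl2*, *Osbpl7* and *Osbpl11* differed by -2.49, -0.28 and -0.31 FPKM. The differences of *Osbpl8* and *Osbpl3* were smaller in size than that of *Osbpl5*, which was selected on its difference, so nothing is read from this. *Osbpl2*, *Osbpl7* and *Osbpl11* could only be placed within 2-fold. *Osbpl9*, *Osbpl10*, *Osbpl1a* and *Osbpl6* have no identified wild-type level and are in none of the sums below. As a pair, *Osbpl5* and *Osbpl8* summed to 6.31 to 8.53 FPKM in wild-type and to 3.56 to 5.82 FPKM in P33T. The pair sum did not overlap between genotypes and its mean differed by -3.45 FPKM, which the rule that chose *Osbpl5* in part fixes. The sum of the 4 members *Osbpl3*, *Osbpl7*, *Osbpl8* and *Osbpl11*, which leaves *Osbpl5* out, was 7.88 ± 0.666 FPKM (SD, n = 6) among wild-type and 8.24 ± 0.378 FPKM (SD, n = 5) among P33T libraries. With *Osbpl2* added the sum of 5 was 33.1 ± 1.97 FPKM (SD, n = 6) and 30.9 ± 0.963 FPKM (SD, n = 5). RNA levels say nothing of the amount or activity of the proteins.

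**Figure D2:**
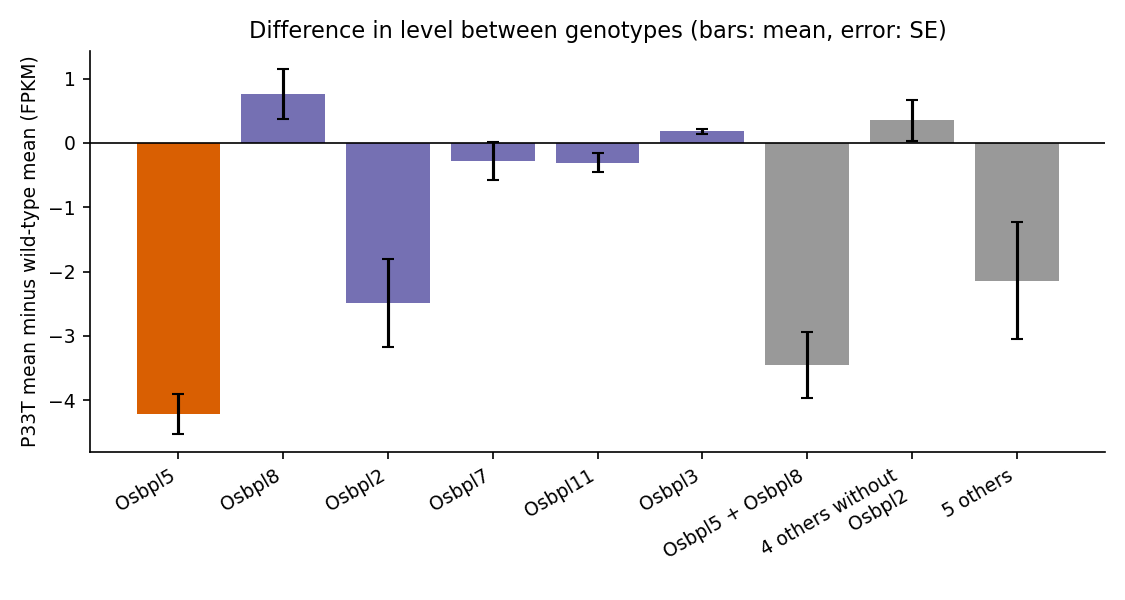
P33T mean minus wild-type mean in FPKM for each member with an identified wild-type row (orange for *Osbpl5*, purple for the others) and for 3 sums (grey), with bars at the difference and error bars of 1 SE. The bar of *Osbpl5* reaches -4.21 FPKM and that of *Osbpl8* 0.76 FPKM.

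Within each library, *Osbpl5* stood above *Osbpl8* in wild-type and below it in P33T. The ratio of *Osbpl5* to *Osbpl8* FPKM was 2.74, 1.71, 2.57, 2.61, 2.83 and 3.25 in wild-type. It was 0.551, 0.344, 0.517, 0.571 and 0.419 in P33T. *Osbpl5* made up 34.8% to 46.7% of the summed FPKM of *Osbpl3*, *Osbpl5*, *Osbpl7*, *Osbpl8* and *Osbpl11* in wild-type libraries and 12.6% to 15.05% in P33T libraries. These ratios are taken within a library, so the depth of the library cancels in them. Both hold *Osbpl5*, so the rule that chose it in part fixes how they differ between genotypes.

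**Figure D3:**
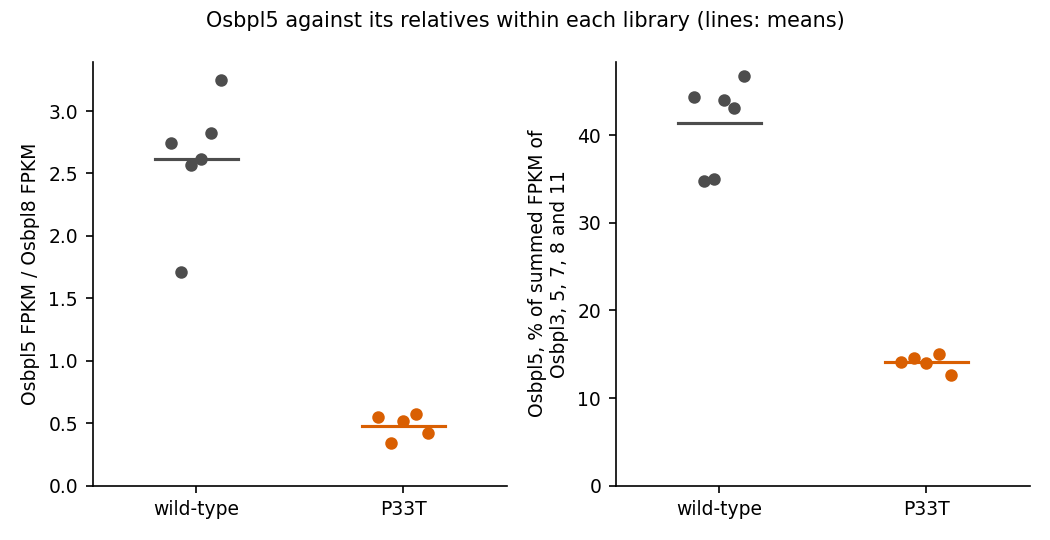
Left, the ratio of *Osbpl5* to *Osbpl8* FPKM, and right, *Osbpl5* as a percentage of the summed FPKM of 5 members, each by genotype with 1 point per library and lines at the means. The ratio has a mean of 2.62 in the 6 wild-type libraries and 0.48 in the 5 P33T libraries, a difference that the choice of *Osbpl5* in part fixes.

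In wild-type the 6 identified members ranked *Osbpl2*, *Osbpl5*, *Osbpl7*, *Osbpl8*, *Osbpl11* and *Osbpl3* by mean level. The ranges of *Osbpl7* and *Osbpl8* overlapped and so did those of *Osbpl8* and *Osbpl11*, while *Osbpl5* was clear of its neighbours on both sides. In P33T all 10 members could be ranked. *Osbpl2* (22.7 FPKM) and *Osbpl9* (6.17 FPKM) came first, then *Osbpl8* (2.93), *Osbpl7* (2.91), *Osbpl1a* (2.39), *Osbpl11* (1.67), *Osbpl10* (1.52), *Osbpl5* (1.35), *Osbpl6* (1.18) and *Osbpl3* (0.729 FPKM). Neighbours overlapped in range within the run *Osbpl8*, *Osbpl7* and *Osbpl1a* and within the run *Osbpl11*, *Osbpl10*, *Osbpl5* and *Osbpl6*, and the other neighbours did not. Among the same 6 members *Osbpl5* was second in wild-type and 5th in P33T, which the rule that chose it in part fixes. All 3 possible wild-type rows of *Osbpl9*, described next, had higher means than *Osbpl5*, so second place holds only among these 6. Over all 10 members it was 8th in P33T, where it was below *Osbpl10* in all 5 libraries although the ranges overlapped.

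The 4 members without an identified wild-type row are described in P33T. *Osbpl9*, whose product ORP9 moves lipid between the endoplasmic reticulum and the Golgi, measured 5.54, 7.73, 5.82, 5.80 and 5.97 FPKM. *Osbpl10*, whose product works with ORP9, measured 1.38, 1.67, 1.496, 1.54 and 1.49 FPKM. *Osbpl1a*, which encodes ORP1 with a long form on late endosomes, lay between 2.17 and 2.60 FPKM. *Osbpl6* lay between 1.04 and 1.29 FPKM. The spread between P33T libraries was 27.6% of the mean for *Osbpl8*, the largest share among the 10 members, and 9.57% for *Osbpl5*.

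For *Osbpl9* and *Osbpl10* the possible wild-type rows can be set beside the P33T level, with no test. *Osbpl9* has a length of 7006 bases, which *Ist1* and *Bub3* share, and 3 wild-type rows have that length. Their means were 9.76 ± 0.531, 7.87 ± 0.771 and 5.65 ± 0.357 FPKM (SD, n = 6 each). *Ist1* and *Bub3* measured 10.02 and 8.71 FPKM in P33T and *Osbpl9* 6.17 FPKM. If the row of *Osbpl9* is one of the 3, its P33T mean was 0.633, 0.785 or 1.09 times its wild-type mean. *Osbpl10* shares its length of 5139 bases with *Zfp229*, and 2 wild-type rows of that length had means of 1.43 ± 0.241 and 0.827 ± 0.147 FPKM (SD, n = 6 each). The P33T mean of *Osbpl10* would be 1.06 or 1.83 times these.

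**Figure D4:**
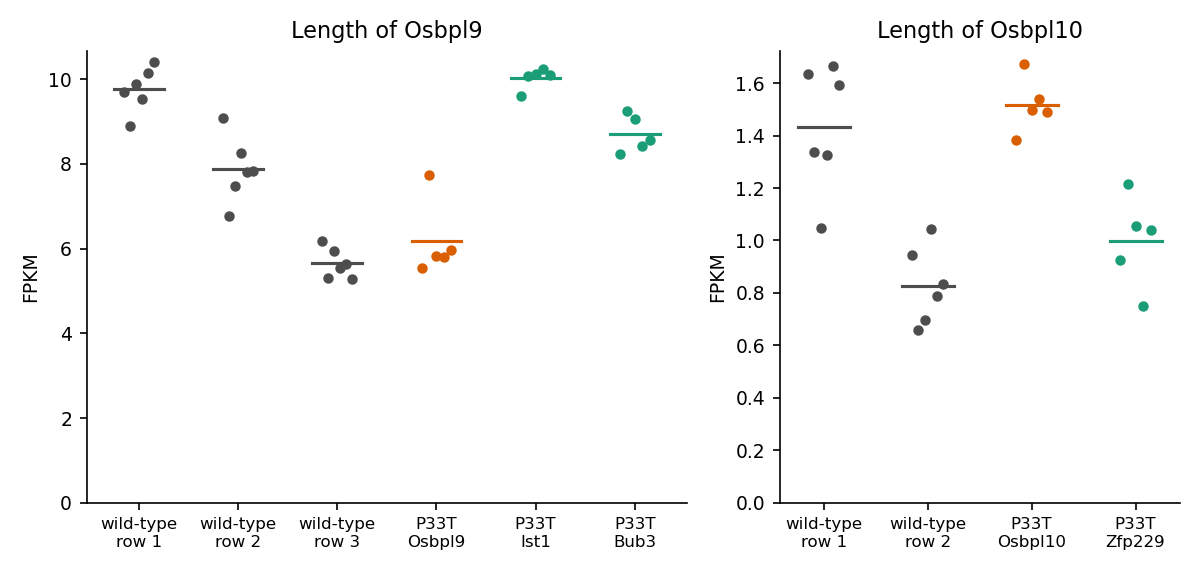
FPKM by library for the wild-type rows of the same length (grey), for the member in P33T (orange) and for the other genes of that length in P33T (green), for *Osbpl9* on the left and *Osbpl10* on the right, with lines at the means. The rows at 5.65 FPKM (left) and 1.43 FPKM (right) lie closest to the member's own P33T mean.

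Of the founding genes of the family, *Osbp* encodes the oxysterol-binding protein itself, which feeds cholesterol to the Golgi, and *Osbp2* a close relative. *Osbp* lay between 18.1 and 21.9 FPKM in P33T, and no wild-type row was accepted for it. *Osbp2* measured 0.627 ± 0.166 FPKM (SD, n = 6) among wild-type and 0.474 ± 0.0826 FPKM (SD, n = 5) among P33T libraries, with a log2 fold change of -0.33 and an adjusted p of 0.6248 by limma.

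Genes that work with ORP5 and ORP8 were read from lists fixed for this purpose, and none of their members that could be compared passed the test in either direction. Of 22 contact site proteins 14 were compared, with a median log2 fold change of -0.10. The median was -0.04 over all genes compared and 0.05 over those found by length and level. The VAP genes *Vapb* and *Vapa*, which bind several other ORPs, had P33T means of 34.7 and 28.9 FPKM, and the membrane tether *Esyt1* had 18.95 FPKM. *Vapa* had a wild-type mean of 25.9 FPKM and *Esyt1* of 19.98 FPKM. *Stim1*, the calcium sensor of the endoplasmic reticulum, was the 1 gene of this list with an unadjusted p under 0.05, and it is named after its values were seen. Of all genes compared 25.5% lay under this limit, and 87.7% of those known from the list of reads, as *Stim1* is. Its means were 7.27 FPKM in wild-type and 8.49 FPKM in P33T, with an adjusted p of 0.48 by limma.

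Of 11 enzymes and partners that make or remove PI4P, 5 were compared, with a median log2 fold change of -0.04. The genes *Pi4k2a*, *Pi4kb* and *Pi4ka*, which encode kinases that make PI4P, had P33T means of 11.03, 9.23 and 8.58 FPKM. *Pi4k2a* had a wild-type mean of 14.0 FPKM and a log2 fold change of -0.35. *Efr3b* encodes part of the complex that holds a kinase making PI4P at the plasma membrane. *Pi4k2a* and *Efr3b* were the 2 genes of this list with an unadjusted p under 0.05. Both were lower in P33T, with an adjusted p of 0.48 by limma. Both rows are known from the list of reads, where 48.9% of genes were lower at that limit. Of 9 phosphatidylserine genes 7 were compared, with a median of -0.13. The flippase subunit *Tmem30a* had a wild-type mean of 45.1 FPKM, and a P33T mean of 61.9 ± 23.8 FPKM (SD, n = 5) over libraries that differed widely. The phosphatidylserine synthase gene *Ptdss1* had means of 13.8 and 15.1 FPKM and the scramblase gene *Plscr1* of 6.45 and 9.24 FPKM. *Plscr1* was the 1 gene of this list with an unadjusted p under 0.05, and its adjusted p by limma was 0.499. Its row too is known from the list of reads, with 87.7% of genes under that limit.

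Of 18 sterol genes 11 were compared, with a median log2 fold change of 0.25, 7 above and 4 below 0. The lysosomal cholesterol carrier *Npc2* had means of 63.0 FPKM in wild-type and 60.9 FPKM in P33T. *Insig1*, which holds back sterol synthesis, had means of 23.0 and 28.0 FPKM, and *Sqle*, an enzyme of that synthesis, of 16.7 and 19.8 FPKM. The 1 sterol gene with an unadjusted p under 0.05 was the oxysterol receptor gene *Nr1h2*, named after its values were seen, with means of 15.3 and 12.05 FPKM and an adjusted p of 0.518 by limma. Its row was found by length and level, where 5.63% of genes lay under that limit. That group leaves out genes known from the list of reads, and 25.5% of all genes compared lay under the limit.

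The chromosome 7 neighbours of *Osbpl5* were examined because the gene lies beside a cluster of imprinted genes and is itself imprinted in the placenta. Of 21 neighbours 17 had P33T values and 9 could be compared, and none passed the test. Their median log2 fold change was -0.14, with 3 above and 6 below 0. The genes with the highest P33T level were *Tssc4* (71.3 FPKM), *Cd81* (34.5 FPKM) and *Nap1l4*, which had means of 26.7 FPKM in wild-type and 29.4 FPKM in P33T. The 2 neighbours under an unadjusted p of 0.05, named after their values were seen, were the decoy receptor genes *Tnfrsf23*, 3 kb from *Osbpl5*, and *Tnfrsf22*, 39 kb away. *Tnfrsf23* had means of 5.04 and 3.85 FPKM with a log2 fold change of -0.39, and *Tnfrsf22* had means of 1.73 and 1.18 FPKM with -0.49. The adjusted p by limma was 0.48 for both. Both rows are known from the list of reads, where 48.9% of genes had a lower level in P33T at an unadjusted p under 0.05.

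The genes whose pattern over the 11 libraries was most like that of *Osbpl5* were sought among 1539 genes with rows known from reads and a mean of at least 20 reads. Likeness was the root mean square difference between log2(FPKM + 0.1) profiles, each set to 0 at its wild-type mean. The 5 closest were *Jpt1* (0.65), *Gm21887* (0.70), *Egr1* (0.73), *Ablim1* (0.74) and *Vip* (0.74), against a median of 1.15 over the genes compared. *Jpt1* had means of 16.9 ± 4.54 FPKM (SD, n = 6) among wild-type and 7.19 ± 1.25 FPKM (SD, n = 5) among P33T libraries. *Ablim1* had means of 1.90 ± 0.195 and 0.511 ± 0.429 FPKM. The points share their libraries, and the choice of measure favours genes with a lower level in P33T.

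Markers of several cell types other than endocrine cells had lower means in P33T, as *Osbpl5* did. All 3 endothelial markers compared of 4 (*Pecam1*, *Cdh5* and *Kdr*) had lower means in P33T, and their summed level ran from 28.1 to 145.6 FPKM in wild-type and from 22.0 to 51.4 FPKM in P33T. All 3 immune markers compared of 6 had lower means, with sums of 19.8 to 50.6 and 15.6 to 24.8 FPKM. All 4 stromal markers had lower means, with sums of 4.86 to 31.5 and 3.31 to 7.87 FPKM. The sums overlapped between genotypes for these 3 lists, whose median log2 fold changes ran from -0.60 to -0.52. *Ngfr*, a marker of Schwann cells, ran from 0.772 to 3.66 FPKM in wild-type and from 0.293 to 0.695 FPKM in P33T. It had a log2 fold change of -1.45 and an adjusted p of 0.478 by limma. The *Ngfr* row is known from the list of reads, where 48.9% of genes were lower in P33T at an unadjusted p under 0.05. None of these markers passed the test. The highest stromal and immune sums came from wild-type replicates 2 and 3, with 31.5 and 17.95 FPKM for the stromal markers. The endothelial sum was highest in replicate 3, at 145.6 FPKM. In replicate 2 it was 41.5 FPKM, below the wild-type median of 56.2 FPKM. *Osbpl5* measured 4.69 and 4.54 FPKM in replicates 2 and 3, its lowest wild-type values. A link between these levels was not tested. With single libraries left out, the log2 fold change of *Osbpl5* ran from -2.01 to -1.92, a range that its selection on this contrast in part fixes. The immune marker *Cd3e* was not analysed here. The summed beta cell markers compared (*Ins1*, *Ins2*, *Iapp* and *Mafa*) overlapped between genotypes, as did those of alpha, delta and PP cells. No wild-type row of the acinar and ductal markers was identified. The part of cell makeup in the level of *Osbpl5* was not tested.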

How the data were processed

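RNA of whole islets was sequenced in 6 wild-type and 5 P33T libraries. Per the labels, RNA was extracted with the RNeasy Mini kit, and the submitters' processing notes name fastp 0.23.1, HISAT2 2.0.5, featureCounts 1.5.0-p3 and DESeq2 1.20.0 with GRCm39. No source used here gives the annotation release. The deposited values are FPKM, which the authors made from read counts per gene and library. Whether strand was kept is left unsaid, so antisense partners are uncertain (*Gm11574* overlaps exons of *Osbpl7* and *Nrd1* those of *Osbpl9*). Columns of the authors' own fold changes and p-values were not used.

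Reads and gene length were recovered from the FPKM: a length is the smallest whole number of bases at which all values of a gene are whole reads. The recovered depth carries a normalisation, since reads on listed rows were 0.78 to 1.09 of it. This share was 0.78 to 0.90 in wild-type and 0.93 to 1.09 in P33T libraries, and the cause of that difference was not tested. Most wild-type rows hold other genes (as deposited, wild-type and P33T correlate at 0.125 to 0.139). A wild-type row was placed by the authors' list of reads (1672 genes), by equal length with means within 4-fold and no other candidate within 16-fold (3054 genes), or, a rule chosen after values were seen, by equal length within 2-fold and no other within 3-fold (2171 genes), with at least 100 reads per genotype. Of 699 rows known from reads that the length rules could place, 699 were placed correctly. With the true row removed, a wrong row was accepted for 4 of 1711 genes (0.234%), and 2 genes matched to a row known for another gene were left out.

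limma 3.58.1 (R 4.3.3, trend and robust) was fitted to log2(FPKM + 0.1) without covariates, with Benjamini-Hochberg adjustment over 19329 genes, those not placed counting as not called. The step was tested on simulated data. Members other than *Osbpl5* also had a two-sided exact permutation test. Named genes were all members, the 5 genes most like *Osbpl5*, and from each list those past the test or else up to 3 with the highest P33T FPKM. A further marker is not reported here. The members and lists were chosen with earlier results of these data known. Alternatives were the pseudocount, a filter on low values, size factors, rows known from reads alone, other limma options, each library left out and a replicate block. Promoter windows came from RefSeq (GRCm38.p6) for 8 of 10 members. Tables used Python 3.11.15 and plots matplotlib 3.10.9.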

Additional observations from a re-analysis of the deposited data

Results flagged for a closer look

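*Osbpl8* measured 4.33 FPKM in P33T replicate 2, against 2.29 to 2.84 FPKM in the other 4 P33T libraries. The gap to the next library was 0.731 of the whole range, over Dixon's 95% critical value of 0.71 for 5 samples. *Osbpl9* measured 7.73 FPKM in the same library, against 5.54 to 5.97 FPKM in the others, with a gap of 0.806 of the range. In all, 16 groups of libraries were examined for the members, and chance gives such a flag in about 1 of 20 groups. P33T replicate 2 held the highest P33T value of 5 of the 10 members and the lowest of 2. The cause was not tested.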

How the results depend on the processing

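*Osbpl5* kept its direction under all 20 alternatives, from -2.03 to -1.47 on the log2 scale, where -1.47 came with a pseudocount of 1, and from -2.01 to -1.92 with single libraries left out. Its selection on this contrast in the same libraries in part fixes this, and nothing is read from it. The count of 0 called among the other 5 members was 0 under every alternative that could be run (0 to 0 with single libraries left out), and no member changed sign. *Osbpl8* ran from 0.25 (without P33T replicate 2) to 0.47 and *Osbpl3* from 0.16 (pseudocount 1) to 0.42. The count of genes called over the table was 6. It was 3 with a pseudocount of 1, with one of 0.01, with a mean of at least 0.5 FPKM, with rows known from reads alone, and with the replicate block by library names. It was 1 with the replicate block by title numbers and 2 where the log2 change had to reach 1.5 in size. With single libraries left out it ran from 3 to 8. It was 3 without wild-type replicate 2, 5 or 6 or P33T replicate 1, 3, 4 or 5. The cause was not tested. The labels do not say whether libraries of the same number belong together. The correlation of deviations of same-numbered libraries ran from -0.56 to 0.10, which cannot exclude a shared batch. The replicate block changed no call of a member. Leaving out rows accepted under the 2-fold rule, an alternative added after seeing the data, gave 4 genes called, and *Osbpl2*, *Osbpl7* and *Osbpl11* then have no value. Those 3 have none either where rows known from reads alone are used. Low levels limit *Osbpl3*, with 79 reads in its shallowest library.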
